A study of Mus musculus with 42 samples.

Results

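Basal expression without the kinase Atm was described from 6 arrays of untreated cells, chosen from the 42 arrays of the series by their titles: 3 Atm-/- lines and 3 wild-type (WT) lines, mock-treated and collected 2 h later. Each line was a pre-B cell line made from bone marrow of an Atm-/- or a WT mouse of 3 to 5 weeks by a pMSCV-v-abl retrovirus, which carries an oncogenic tyrosine kinase. All mice, WT included, carried the Em-Bcl2 transgene, which protects cells of the B lineage from apoptosis. Lines are numbered 1, 2 and 3 for Atm-/- and 1, 3 and 4 for WT, as biological replicates in the labels, which do not say whether a line is a single clone and name no strain. The other 36 arrays were 15 untreated lines of 5 further mutants (Scid, Mre11A/A, 53bp1-/-, H2ax-/- and Mdc1-/-) and the same 21 lines 2 h after 1 Gy of ionizing radiation. X- and Y-linked genes were left out of all counts below, because Atm-/- line 3 alone among the 6 lines had low Xist (216) and high Eif2s3y (2233) signal.

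Atm is a large protein kinase that the Mre11 complex activates at DNA double-strand breaks. It phosphorylates p53, H2ax, Chek2 and many other proteins, and so stops the cell cycle and helps to hold broken ends together. Developing B cells break their own DNA when the Rag recombinase assembles antigen receptor genes, and Atm acts at those breaks too. Mice and people without Atm are known for lymphoid tumours whose chromosomes are often rearranged at antigen receptor loci.

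All 6 lines had the transcripts of pre-B cells. Vpreb1 and Igll1, the surrogate light chains of the pre-B receptor, had signals of 22932 to 33166 and 15250 to 24407 in Atm-/- lines, and of 19634 to 23795 and 16020.5 to 16715 in WT lines. The receptor subunits Cd79a and Cd79b, the transcription factors Ebf1 and Pax5, the adaptor Blnk, the cytokine receptor Il7r and the recombinase genes Rag1 and Rag2 were measured in every line. The arrays of WT lines correlated with each other at 0.953 to 0.968 over the genes tested, the arrays of Atm-/- lines at 0.925 to 0.938, and arrays of different genotype at 0.939 to 0.952. Every pair of Atm-/- lines thus correlated less than any pair of unlike genotype.

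Of 11095 autosomal genes tested, 2 passed at an adjusted p under 0.05, or 0.018% (limma, over all genes tested): Atm fell and Ccnb1ip1 rose in Atm-/- lines (0.00901% each). Atm had signals of 132, 195 and 174 in Atm-/- lines 1, 2 and 3, against 1434, 1756 and 1529 in WT lines 1, 3 and 4. The groups lay far apart, and the log2 difference was -3.13 ± 0.16 (SE, n = 3 lines each, limma adjusted p = 3.49e-09). A second Atm probe set gave 85.3, 222 and 191 in Atm-/- lines and 796, 815 and 752 in WT lines, a log2 difference of -2.23. The knockout label was thus matched by both probe sets in all 3 lines. Among the other untreated mutants the probe sets disagreed. The brighter one was also low in H2ax-/- lines (267 to 336) and Mdc1-/- lines (286 to 296), where the second one read 838 to 962 and 773 to 887.

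The region around the start of Atm is shown because its neighbour Npat begins there on the opposite strand and was measured as well. The sequence is the RefSeq window of 250 bases before to 50 bases after the Atm start, on the minus strand of chr9:53536622-53536921 (GRCm38.p6). Capitals mark the 125 bases that also lie in the Npat window.

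Atm: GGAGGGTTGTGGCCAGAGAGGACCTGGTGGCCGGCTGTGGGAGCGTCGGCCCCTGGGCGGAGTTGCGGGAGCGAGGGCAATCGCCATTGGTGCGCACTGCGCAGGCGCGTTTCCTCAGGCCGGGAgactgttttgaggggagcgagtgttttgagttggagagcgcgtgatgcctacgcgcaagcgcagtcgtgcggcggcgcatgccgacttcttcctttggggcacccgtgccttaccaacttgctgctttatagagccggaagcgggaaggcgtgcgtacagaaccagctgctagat

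Npat, a coactivator of histone gene transcription, had signals of 1206, 1471 and 1355 in Atm-/- lines, against 1462, 1721 and 1408 in WT lines. The groups overlapped, and the difference was -0.18 ± 0.11 (limma adjusted p = 0.569). Of these 2 genes with overlapping start windows, Atm was 8.75-fold lower on the log2(signal + 16) scale and Npat did not pass the test.

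Ccnb1ip1, also called Hei10, encodes a ubiquitin ligase required for crossing over in meiosis. Its signals were 2669, 1795 and 845 in Atm-/- lines, against 37.4, 96.9 and 18.3 in WT lines. WT lines 1 and 4 lay below the median signal of all probe sets on their own arrays, which was 63.1 to 74.3 in WT lines, and every Atm-/- line lay far above it. The log2 difference was 4.77 ± 0.73 (limma adjusted p = 0.024), or 27.3-fold on the log2(signal + 16) scale, and a single probe set measured the gene. The call was lost with the 6 arrays alone (limma adjusted p = 0.21), with no intensity trend (0.0576) and with array weights (0.09857). It was also lost with the replicate number as a block (0.169), and without WT line 1 or WT line 4 (0.13 and 0.127). The log2 difference lay between 3.92 and 5.26 over all alternatives. Their limma adjusted p ran from 0.000604, with all 42 arrays and the line as a random block, to 0.21.

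Atm-/- lines were not alone in this. Untreated Mdc1-/- lines read 2536 to 3043 and H2ax-/- lines 1114 to 1873, Scid lines spread over 99.2 to 2078, and Mre11A/A and 53bp1-/- lines read at most 40.1 and 49.4. Over the 21 lines Ccnb1ip1 was either high or near background, with Scid lines on both sides. Against the mean of the 5 other mutants, which joins these high and near-background genotypes, Atm-/- lines differed by 2.22 ± 0.56 (limma adjusted p = 0.0242). The mean signal of Mdc1-/- lines, 2761, was above that of Atm-/- lines, 1770. In the irradiated arrays of the same lines Ccnb1ip1 read 2422, 1658 and 847 in Atm-/- lines and 58.3, 76.6 and 46.6 in WT lines.

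**Figure D1:**
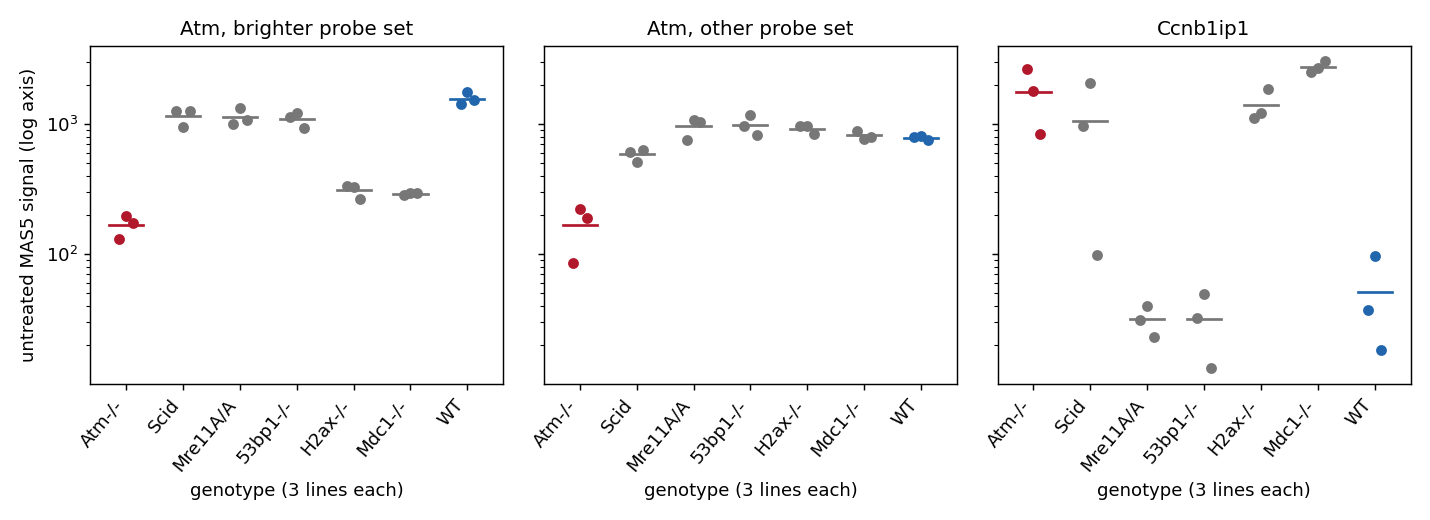
Untreated signal (MAS5, log axis) of both Atm probe sets and of Ccnb1ip1 in the 21 lines, 3 per genotype; points are lines and bars are means of the 3. Both Atm probe sets are lowest in Atm-/- lines, the brighter one is also low in H2ax-/- and Mdc1-/- lines, and Ccnb1ip1 separates high lines from lines near background.

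Because Ccnb1ip1 was the only gene called higher, the window around its start is printed. Every CG dinucleotide, the site of DNA methylation in mammals, is in capitals. It covers chr14:50795679-50795978 on the minus strand (GRCm38.p6, RefSeq) and holds 13 CG. CG reads the same on both strands. Of all RefSeq windows of this length, 37.9% hold as many CG or more, against 14.2% for the 28 CG of the Atm window. Methylation was not measured.

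Ccnb1ip1: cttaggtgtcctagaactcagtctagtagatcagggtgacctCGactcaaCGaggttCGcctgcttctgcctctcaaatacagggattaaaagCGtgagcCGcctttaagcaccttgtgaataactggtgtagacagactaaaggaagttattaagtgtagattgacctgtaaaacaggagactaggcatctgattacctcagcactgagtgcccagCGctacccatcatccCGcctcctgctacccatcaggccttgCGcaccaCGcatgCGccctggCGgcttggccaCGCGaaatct

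The remaining genes were read against a background of wide differences. At an unadjusted p under 0.05 there were 1181 genes, 660 higher (5.95%) and 521 lower (4.7%) in Atm-/- lines, together 10.6% of those tested. In 1282 genes (11.6%) the 3 arrays of one genotype did not overlap those of the other; 762 were higher (6.87%) and 520 lower (4.69%) in Atm-/- lines. The median log2 difference over all autosomal genes was 0.03. The count of 2 called genes was 38 without Atm-/- line 1, 8 without Atm-/- line 2, 9 without Atm-/- line 3 and 1 without WT line 4. With all 42 arrays and the line as a random block it was 19, 7 higher and 12 lower, among them Zscan12, Casd1, Cpne3, Spata13, Lcp1 and Cdc25b. That fit used 1 within-line correlation, 0.561, for all genes. Its p-values tend to be too small for genes that nearly repeat within a line. In Atm-/- lines Cpne3 read 944, 107 and 506 untreated and 1079, 82.0 and 467 irradiated. Spata13 and Lcp1 lie on chromosome 14 and Cpne3 on chromosome 4, in stretches that were low in Atm-/- line 1. Those stretches are described with the runs of genes. Cpne3 itself was lowest in Atm-/- line 2, where its stretch stood at 0.08.

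Among the 15 largest non-overlapping differences in each direction, a selection made after the values were seen, only Atm and Ccnb1ip1 were called. Casd1, which adds acetyl groups to sialic acids, read 1.13, 12.6 and 756 in Atm-/- lines, against 1277, 1186 and 955 in WT lines. It was almost absent in Atm-/- lines 1 and 2 and close to WT in line 3, and its difference was -3.99 ± 0.97 (limma adjusted p = 0.176). Zscan12, a zinc finger gene, read 29.4, 9.42 and 28.6 in Atm-/- lines, against 187, 195 and 131 in WT lines (-2.31 ± 0.42, limma adjusted p = 0.0872). All 3 Atm-/- lines were low here. Cpne3, a calcium-binding copine, and its neighbour Rmdn1 differed by -2.14 and -2.13, and both were lowest in Atm-/- line 2, at 107 and 8.54. Zmat3, an RNA-binding protein and p53 target, read 1753, 76.4 and 1810 in Atm-/- lines, against 1989, 2891 and 5166 in WT lines, a difference of -2.22, with line 2 far below every other line.

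On the higher side stood Ehd3, an endocytic recycling protein, with 541, 367 and 480 in Atm-/- lines against 143, 88.2 and 9.23 in WT lines (2.66 ± 0.69). Tmprss4, a membrane serine protease, and Scn2b, a sodium channel subunit, differed by 2.07 and 2.02, and the receptor tyrosine kinase gene Ret by 1.67. Satb1, a chromatin organizer of lymphocytes, read 777, 829 and 1202 in Atm-/- lines against 637, 337 and 146 in WT lines (1.48). Tmprss4 and Scn2b read no more than 41.6 and 67.2 in WT lines, about the array median or below, and a second Scn2b probe set had the opposite sign. In the irradiated arrays of the same lines, 19 of the 30 genes again did not overlap in the same direction, 8 of the higher and 11 of the lower; of all 1282 genes that did not overlap untreated, 279 did so again in the same direction, and 12.2% of all genes did not overlap in irradiated arrays in either direction. Both arrays of a line share that line, so this is a repeat of the measurement and not of the genotype.

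Among genes of the damage response only Atm was called. Of 25 damage kinases and break sensors, 1 was called lower, Atm itself, and 0 were called higher. Called or not, 12 were higher and 13 lower, and the median difference was -0.01 against 0.03 over all genes. Mre11a, the nuclease of the complex that activates Atm, read 1205, 1143 and 1296 in Atm-/- lines against 1473, 1472 and 1706 in WT lines (-0.35, limma adjusted p = 0.373), with the opposite sign in its second probe set. Atr, the kinase of replication stress, differed by 0.23, Chek1 by -0.16, Chek2, a target of Atm, by -0.04 and Prkdc, the kinase of end joining, by 0.04. None of 17 end-joining genes or 19 homologous recombination genes was called. Their medians were -0.05 and 0.04, and 3 of the 19 recombination genes (15.8%) did not overlap on the higher side, against 6.87% of all genes. Parp1, which senses DNA breaks, read 4932, 5548 and 5391 in Atm-/- lines against 6196, 5809 and 6358 in WT lines, a small difference of -0.21 without overlap. Gen1, a resolvase of recombination junctions, differed by 0.59, although its second probe set had the opposite sign, and Rad52 by 0.34.

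Targets of p53 and NF-kB, the transcription factors that Atm activates after damage, had 0 called members without radiation. Of 33 p53 targets, 23 were lower and 10 higher in Atm-/- lines, with a median of -0.17; 4 did not overlap on the lower side (12.1%) and 3 on the higher side (9.09%), against 4.69% and 6.87% of all genes. Bbc3, the apoptosis gene also called Puma, read 250, 134 and 285 in Atm-/- lines against 403, 307 and 690 in WT lines (limma adjusted p = 0.404). Polk, a DNA polymerase that copies past lesions, read 325, 298 and 437 against 543, 536 and 763 in WT lines (-0.77). Cdkn1a, whose product p21 holds cells in G1, read 1337, 296 and 1756 in Atm-/- lines and 1321, 2631 and 4331 in WT lines, with overlap. The WT lines spread widely in this list, with summed signals of 44222 to 77960 against 32322 to 53190 in Atm-/- lines. Of 28 NF-kB genes, 15 were higher and 13 lower (median 0.07). Nfkbib, an inhibitor of NF-kB, differed by 0.47 and Mir155hg, the host gene of a microRNA of activated B cells, by 1.52, but Mir155hg read only 37.7 to 81.6 in Atm-/- lines and 6.51 to 19.4 in WT lines.

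B-lineage genes had 0 called members and differed in both directions. Of 33 B-lineage transcription factors 16 were higher and 17 lower, with a median of -0.05 and a range of -2.29 to 0.93. Of these, 4 did not overlap on the lower side (12.1%), against 4.69% of all genes. On the higher side 1 did not (3.03%), against 6.87%. Of 27 genes of the pre-B receptor and B-cell surface 13 were higher and 14 lower, with a range of -1.34 to 2.46. On each side 2 did not overlap (7.41%), against 6.87% of all genes on the higher side and 4.69% on the lower side. In that list 4 of the 27 genes were higher at an unadjusted p under 0.05 (limma), against 5.95% of all genes. Vpreb3, a protein of the pre-B receptor, read 13508, 13565 and 13643 in Atm-/- lines, against 10954, 10691 and 11534 in WT lines (0.30, limma adjusted p = 0.434). Vpreb1 and Cd79a differed by 0.35 and 0.41, and Vpreb1 by 0.03 in the irradiated arrays of the same lines. The kappa light chain locus Igk differed by 2.46, with 2080 in Atm-/- line 2 and at most 138 in the other 5 lines. Blk, a Src-family kinase of B cells, read 541, 2142 and 874 in Atm-/- lines, against 2250, 2670 and 2805 in WT lines (-1.34 ± 0.41, limma adjusted p = 0.267). It lies on chromosome 14 in a run of genes that was low in Atm-/- line 1, described below. Klf3 differed by -2.29 and overlapped. Of 14 genes of antigen receptor recombination, 8 were lower (median -0.13). Irf4, a factor of light-chain recombination, read 590, 1806 and 2487 in Atm-/- lines and 2520, 2668 and 1563 in WT lines. Rag1 read 1041, 378 and 1203 in Atm-/- lines and 1579, 1190 and 299 in WT lines, so that WT line 4 was lowest.

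Interferon-response genes had the lowest median of the 26 lists. Of 35 measured members, 26 were lower and 9 higher in Atm-/- lines, the median was -0.26, and 10 did not overlap on the lower side (28.6%) and 2 on the higher side (5.71%), against 4.69% and 6.87% of all genes; 0 were called. Gbp2 and Gbp3, GTPases of cell defence, read 504, 236 and 422 and 1061, 568 and 1148 in Atm-/- lines, against 1053, 912 and 1773 and 1815, 1657 and 1646 in WT lines. Trim30a read 1380, 1312 and 1486 in Atm-/- lines against 2317, 2192 and 3099 in WT lines (-0.84 ± 0.24, limma adjusted p = 0.242). Oas1b, a member of the oligoadenylate synthetase family, went the other way (73.9, 152 and 95.3 in Atm-/- lines and 6.90, 19.1 and 41.2 in WT lines). Neither Trim30a nor Oas1b was particular to Atm-/- lines, which differed from the mean of the 5 other mutants by 0.020 and 0.015. That mean differed from WT lines by -0.86 for Trim30a and 1.72 for Oas1b (limma adjusted p = 0.0193 and 0.00302). Of 20 MHC genes, 15 were lower, with a median of -0.16.

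Metabolic and growth lists had no called member. Of 30 glycolysis and hypoxia genes 19 were higher (median 0.16, against 0.03 over all genes). Of these 30, 5 did not overlap on the higher side (16.7%) and 1 on the lower side (3.33%), against 6.87% and 4.69% of all genes. Ldha, lactate dehydrogenase, read 33458, 32689 and 29192 in Atm-/- lines, against 22064, 24173 and 25957 in WT lines (0.40 ± 0.10, limma adjusted p = 0.203), and Tpi1, a glycolytic isomerase, differed by 0.65. Vdac1, the channel of the outer mitochondrial membrane, read 11459, 13345 and 13078 in Atm-/- lines and 8792, 8816 and 10199.7 in WT lines (0.45 ± 0.09). The respiratory chain list had 25 of 37 members higher (median 0.07), the oxidative stress list 20 of 34 (0.07), and Myc and ribosome biogenesis 19 of 32 (0.10). Of 43 G1/S genes 28 were higher (0.03), with Pcna at 0.23, or -0.033 after quantile normalization. In the irradiated arrays of the same lines the differences were 0.04 for Ldha, 0.36 for Tpi1, 0.24 for Vdac1 and -0.09 for Pcna. Of 37 G2/M genes 25 were higher (0.08), among them Cdc25b, a phosphatase that starts mitosis, at 1009, 1552 and 1568 in Atm-/- lines and 733, 830 and 821 in WT lines (0.75 ± 0.17, limma adjusted p = 0.165). For Cdc25b, Atm-/- lines differed by 0.10 from the mean of the 5 other mutants. That mean differed from WT lines by 0.66 (limma adjusted p = 0.0111), but it joins unlike genotypes. Scid lines read 658 to 903, around the WT signals. The means of Mre11A/A, 53bp1-/-, H2ax-/- and Mdc1-/- lines were 1222 to 1707. The list median was -0.11 for Abl, Stat5 and PI3K signalling (38 genes) and -0.04 for the Bcl2 family (25 genes). It was -0.02 for homing genes (22 genes) and -0.0007 for heat shock genes (31 genes).

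Markers of other blood lineages differed widely in signal. Of 15 autosomal T-cell markers on the array 5 passed the filter on low values and 10 did not, Cd3d, Cd3e and Cd3g of the T-cell receptor complex among those 10. Lat, an adaptor of T-cell receptor signalling, read 142, 1747 and 3200 in Atm-/- lines and 213, 296 and 62.0 in WT lines, so that lines 2 and 3 were high and line 1 was not. The summed signal of the T-cell markers was 600 to 3988 in Atm-/- lines and 543 to 668 in WT lines. Natural killer markers summed to 572 to 1369 in Atm-/- lines and 513 to 626 in WT lines, and Klrd1, a receptor of these cells, made up most of the excess at 911, 487 and 144 against 32.7, 31.6 and 279. The summed signals of T-cell, natural killer, myeloid, erythroid, stromal and plasma cell markers all overlapped between the genotypes. The part of other cells in any result was not tested.

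**Figure D2:**
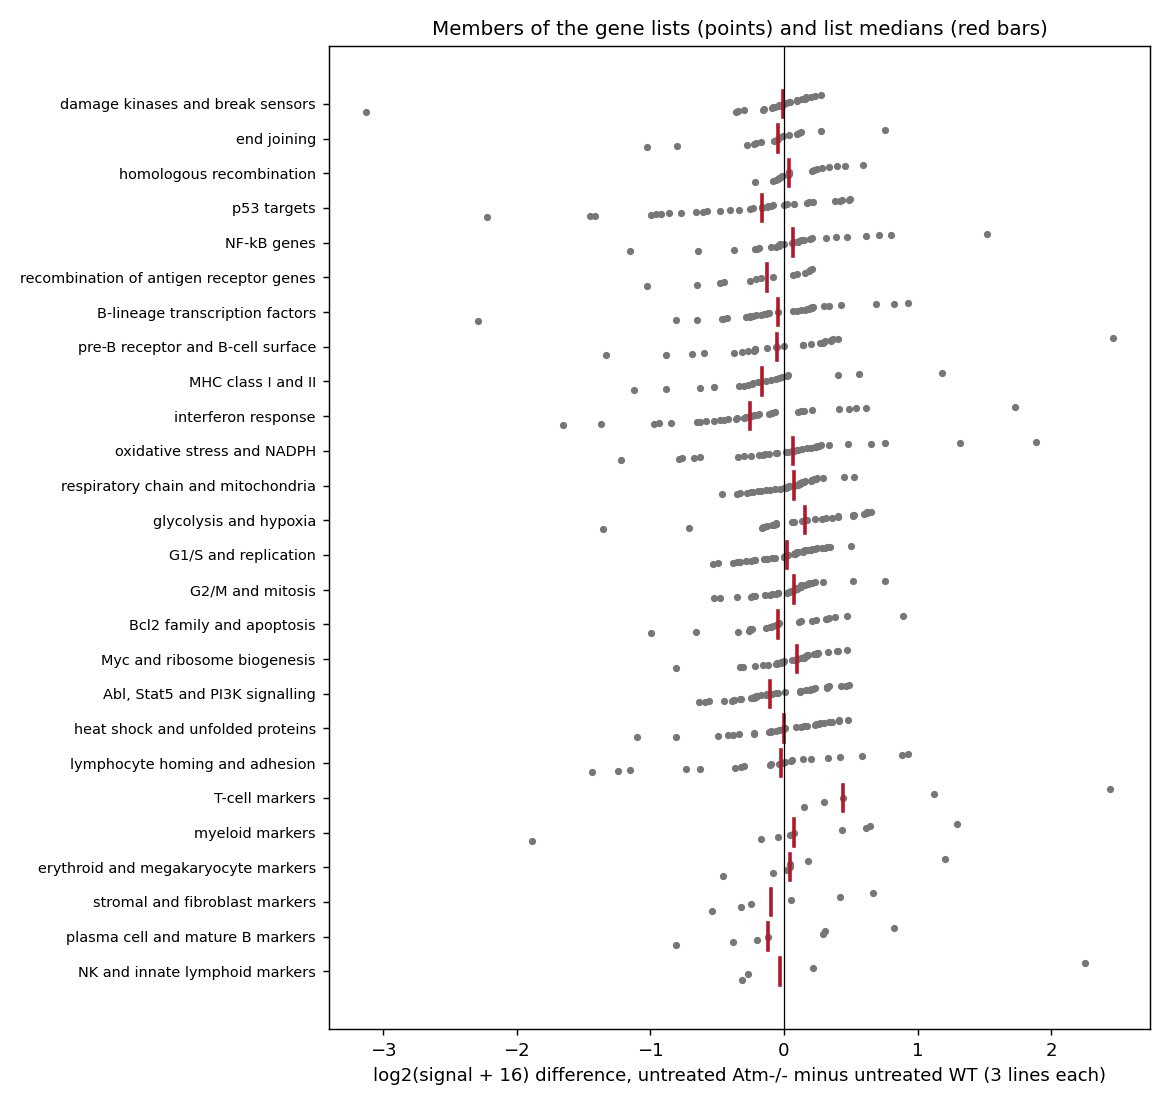
Log2 difference of each measured member (points) of 26 gene lists, untreated Atm-/- minus untreated WT, with the list median as a red bar. The lowest point, at -3.13, is Atm, and all list medians lie between -0.26 and 0.44.

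The neighbourhood of Atm on chromosome 9 was looked at for changes beside the targeted gene. Of the 40 genes tested among the 40 RefSeq places on each side, 0 were called and 3 did not overlap (7.5%, below the 11.6% of all genes): Pts, Isl2 and Scaper. Farther down, 61 to 100 places below Atm, 7 of 25 tested genes did not overlap (28.0%), a window chosen after the values were seen. Arcn1, a coat protein of Golgi vesicles, read 3596, 2718 and 3159 in Atm-/- lines, against 4582, 4931 and 5010 in WT lines (-0.62 ± 0.11, limma adjusted p = 0.0645). Ddx6, an RNA helicase, read 1951, 1927 and 2061 against 3178, 2893 and 2875 in WT lines (-0.59 ± 0.13). Scn2b, Tmprss4, Il10ra, Kmt2a and Pcsk7 were the others, 3 higher and 2 lower.

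Beyond single genes, long runs of neighbouring genes stood together above or below the other lines, and this differed from line to line. Autosomal genes with a mean signal above 500 were cut, in RefSeq order, into 229 runs of at least 25 genes, and the median of each run was taken in each line relative to the median of the 21 untreated arrays. A run was called shifted where its median was at least 0.3 above or below 0 on the log2 scale, a measure and limit chosen after the values were seen, so no test was made. Atm-/- lines 1, 2 and 3 had 19, 9 and 10 shifted runs, against 0, 0 and 7 in WT lines 1, 3 and 4. The 7 of WT line 4 were all runs of chromosome 18, each 0.34 to 0.54 above 0. In the 15 lines of the other mutants the count was 0 to 6. At other limits the order of the lines changed. At 0.4, Atm-/- lines 1, 2 and 3 had 15, 8 and 3 shifted runs, against 6 in WT line 4, and Mre11A/A line 2 had 6. At 0.2 they had 25, 12 and 17, against 7 in WT line 4, and 53bp1-/- line 2 had 15. Most shifts returned in the irradiated array of the same line, with the same sign in 15, 9 and 10 runs of Atm-/- lines 1, 2 and 3 and in 7 of WT line 4.

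In Atm-/- line 1 the end of chromosome 11 was high, at 0.45, 0.85, 1.16 and 0.62 in its last 4 runs, from Atxn7l3 to Tbcd. The last 6 runs of chromosome 5 stood at 0.35 to 0.63, and the first 2 of chromosome 4 at -0.74 and -0.54. In Atm-/- line 2 the first 2 runs of chromosome 3, from Pex2 to Noct, stood at -0.92 and -0.86, and the first 4 of chromosome 13, from Gdi2 to Thoc3, at -0.43 to -0.89. Zmat3 is the last gene of the first run of chromosome 3, and Zscan12 lies in the second run of chromosome 13, which stood at -0.67 in line 2. In Atm-/- line 3 there were 4 adjacent runs of chromosome 1 at 0.34 to 0.42 and 2 of chromosome 12 at 0.33 and 0.46. Lines 2 and 3 shared 3 high runs near the start of chromosome 11, between Peli1 and Sap30l, at 0.36 to 0.50 and 0.34 to 0.35, while line 1 was not shifted there; the run between them stood at 0.29 and 0.22 in lines 2 and 3. Copy number was not measured. With each gene set against its own run, the called genes were again Atm (-3.15) and Ccnb1ip1 (4.57, limma adjusted p = 0.0311), and 2 in number.

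**Figure D3:**
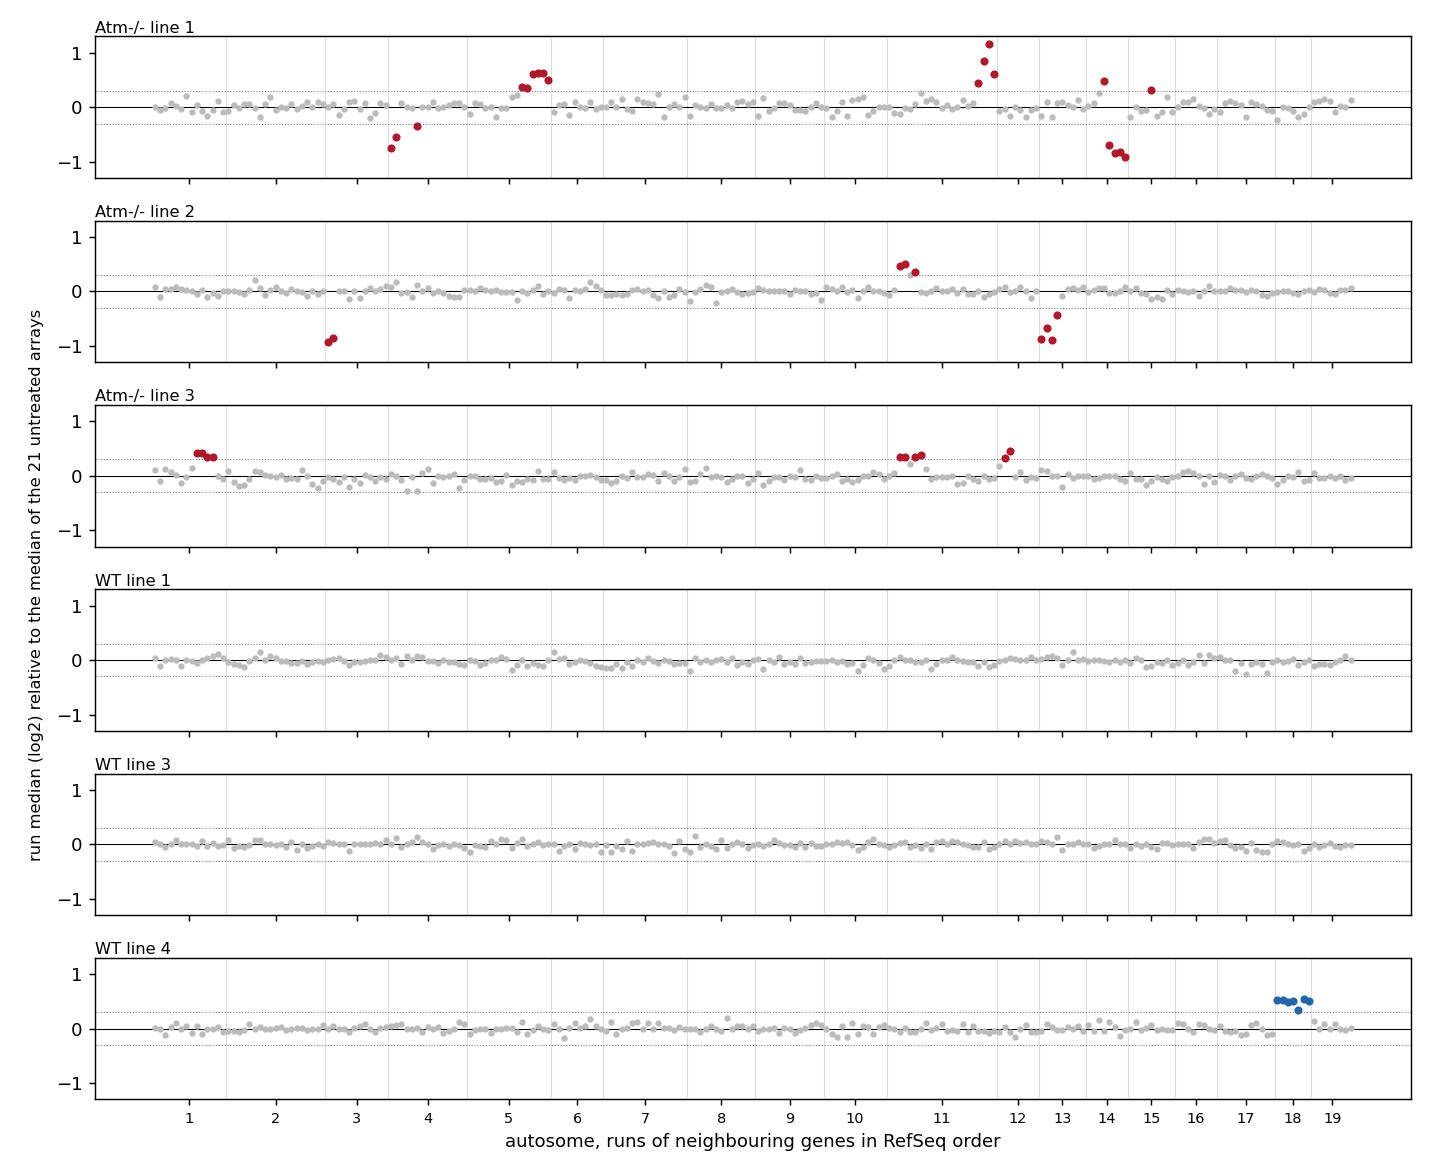
Median log2 signal of 229 runs of neighbouring genes along the autosomes in the 3 Atm-/- lines (top) and 3 WT lines (bottom), relative to the 21 untreated arrays. Coloured points lie at least 0.3 from 0 (dotted lines); there are 19, 9 and 10 in Atm-/- lines and 0, 0 and 7 in WT lines.

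**Figure D4:**
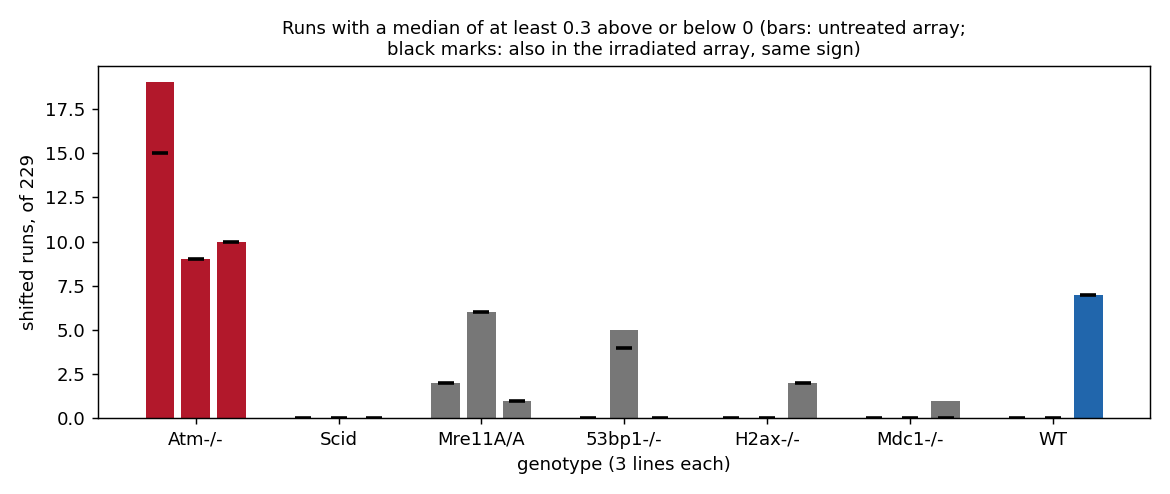
Number of shifted runs, of 229, in the untreated array of each of the 21 lines (bars), with the number that the irradiated array of that line shares in sign as a black mark. At this limit Atm-/- lines have 9 to 19 and other lines 0 to 7, which did not hold at limits of 0.2 or 0.4.

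A change of sign lay on chromosome 14 of Atm-/- line 1. The fourth run, from Cdkn3 to Supt16, stood at 0.49, and the runs from Chd8 to the end of the chromosome at -0.69, -0.84, -0.83 and -0.92. Between Mettl3 and Dad1, where the sign turned, RefSeq places Tcra, the T-cell receptor alpha locus, which also holds the delta locus. Of the 20 bright genes before Tcra, 19 were above 0 and 0 below in Atm-/- line 1, with a median of 0.53. All 20 after it were below 0, with a median of -0.79. The 4 bright genes before the locus were Supt16 at 0, Chd8 at 0.0015, Tox4 at 0.25 and Mettl3 at 0.39. The 4 after it were Dad1 at -0.54, Abhd4 at -0.011, Oxa1l at -0.47 and Mrpl52 at -0.85, so that Supt16, Chd8 and Abhd4 stood at or near 0. Prmt5, an arginine methyltransferase, stood at -0.97 and Ngdn at -2.11. The irradiated array of the line gave medians of 0.57 before and -0.83 after, with 20 of 20 below 0 after Tcra. In Atm-/- lines 2 and 3 the medians were 0.06 and 0.02 before and -0.02 and -0.02 after, and in WT lines they lay between -0.02 and 0.01 before and between -0.03 and 0.17 after. The change of sign was found by looking along the chromosome after the values were seen, and no test was made of it.

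**Figure D5:**
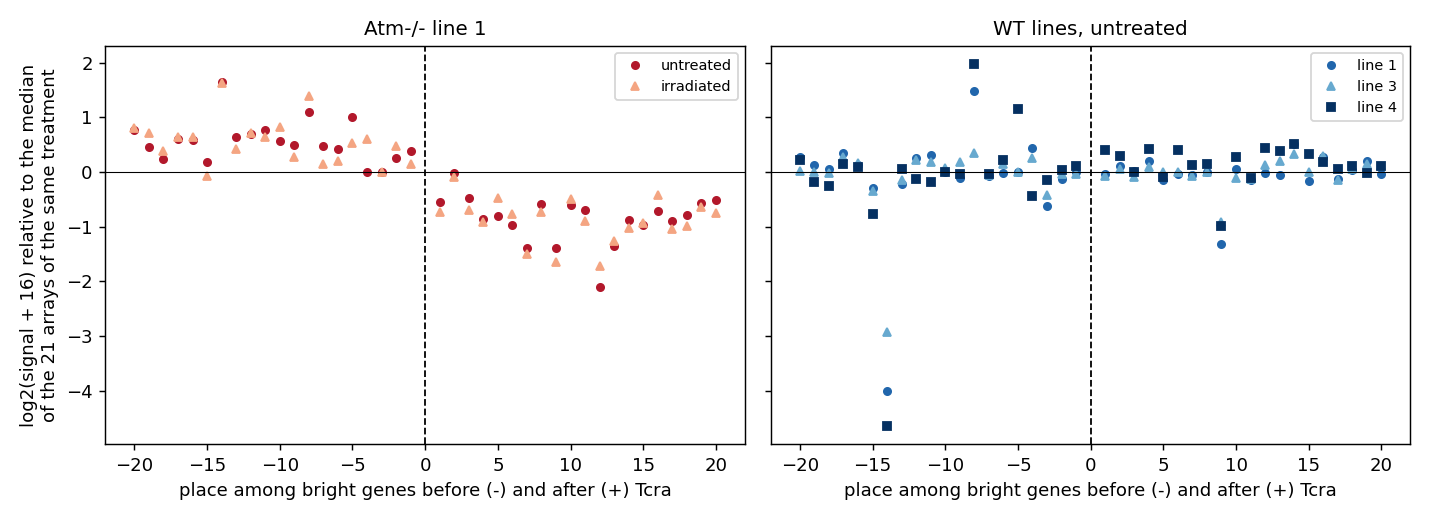
Log2(signal + 16) of the 20 bright genes on each side of Tcra on chromosome 14, in gene order, relative to the median of the 21 arrays of the same treatment. In Atm-/- line 1 (left) the genes before the dashed line stand at a median of 0.53 and those after it at -0.79; in WT lines (right) both sides stay near 0 except for single genes such as Ccnb1ip1, at -4.65 to -2.93.

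Against the mean of the 5 other mutants, Atm-/- lines differed in 765 autosomal genes (6.89%; limma, adjusted p under 0.05), far more than against WT. This comparison sets 3 lines against 15, and both comparisons share the Atm-/- arrays. The mean of the 5 joins unlike genotypes, so a called gene need not differ from each of them. Tcf4 was called with means of 1802 in Atm-/-, 1762 in Scid and 3667 to 4174 in the remaining mutants. Zscan12 was called with 22.5 in Atm-/- lines and 106 to 209 in all 5. How many genes were of either kind was not counted. In irradiated cells, Atm-/- minus WT gave 13 called genes (0.117%), Atm at -2.94 and Ccnb1ip1 at 4.33 among them. The difference between Atm-/- and WT lines itself differed between irradiated and untreated arrays in 183 genes (1.65%, limma, interaction).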

How the data were processed

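Total RNA of 21 lines was hybridized to 42 Affymetrix mouse arrays, 1 untreated and 1 irradiated per line. The authors deposited one linear intensity per probe set and array, computed with MAS5 per the submitters' processing notes. Extraction is given in the labels' protocols as a Qiagen RNeasy kit. Groups and replicate numbers came from the labels. Only 3 arrays per group limit the precision; nothing more is known of separate mice, so p-values measure the spread between these lines.

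Of 45101 probe sets, 34945 had 1 gene symbol, 932 had several, 9160 were unnamed here and 64 were controls; 34741 were found in RefSeq (GRCm38.p6), used for chromosomes and gene order. A probe set was kept if above its array's median on at least 3 of 21 untreated arrays (26317 kept), and each gene used its kept probe set with the highest mean (11495 genes, 11095 autosomal). X- and Y-linked genes stayed in the fit and its adjustment. Values were tested as log2(signal + 16), which understates differences of low genes, with limma 3.58.1 in R 4.3.3: means of 7 genotypes over 21 untreated arrays (14 residual degrees of freedom), moderated variances following intensity, two-sided p-values, Benjamini-Hochberg adjustment and a threshold of 0.05. The method was tested on simulated data. Irradiated Atm-/- and WT lines were compared in the same way over the 21 irradiated arrays, without a block. The interaction of genotype and radiation used all 42 arrays with the line as a random block (correlation 0.561). Plots were made with Python 3.11.15, pandas 2.3.3, numpy 2.4.6 and matplotlib 3.10.9.

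The arrays compared, the 26 gene lists and the tests were chosen with earlier results of these data known. Named genes were Atm, the 15 largest called non-overlapping differences each way, and per list up to 4 called members, or else 2 with the smallest p. Others are said to be chosen after their values were seen, or are members of the lists. Deviations of Atm-/- and WT arrays from their group means correlated at -0.037 to 0.0476. The pairs of the same number, 1 and 3, gave -0.012 and 0.0476. With 3 arrays per group these values cannot decide whether lines of the same number shared a day or litter. The main fit did not pair them.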

Additional observations from a re-analysis of the deposited data

Results flagged for a closer look

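For 4 of the genes named above, the difference between Atm-/- and WT lines was not the same in untreated and irradiated arrays, by the interaction of genotype and radiation (limma, adjusted over all genes; 183 autosomal genes, or 1.65%, passed). Mir155hg differed by -1.67 in irradiated and 1.52 in untreated arrays, a change of -3.19 (adjusted p = 0.000291). Nfkbib differed by -0.43 and 0.47, a change of -0.91 (adjusted p = 0.00949). Oas1b differed by -0.27 and 1.73, a change of -2.00 (adjusted p = 0.0108). Cox15, an assembly factor of cytochrome oxidase, differed by 0.27 and -0.46, a change of 0.73 (limma adjusted p = 0.0457). In untreated arrays 1 of its other probe sets had the opposite sign. These genes had been named by their untreated values, which also enter the interaction. That choice by itself favours a change against the untreated sign, and each of these changes ran that way. The p-values do not allow for it.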

How the results depend on the processing

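The count of called autosomal genes, 2 (1 higher, 1 lower), was 10 with the probe set of largest variance (9 lower), 1 with the 6 arrays alone (0 higher), 19 with all 42 arrays and the line as a random block (7 higher, 12 lower), 1 with no intensity trend or with array weights (0 higher each), and 1 at an adjusted p under 0.01 (0 higher). With the mean of all kept probe sets 2 genes were lower. With the replicate number as a block it was 2, 0 higher and 2 lower, and Ccnb1ip1 gave 4.17 (limma adjusted p = 0.169). Whether lines of the same number belong together is not known. Leaving out 1 line at a time gave 1 to 38 calls, 0 to 19 higher and 1 to 19 lower. The irradiated count of 13 was 6 with no intensity trend. Atm kept its call under all 22 alternatives (-3.24 to -2.68).

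Of 76 named genes, 7 changed sign under some alternative, none called. With the largest-variance probe set B2m gave 0.14, Cox15 0.26, Tsc1 0.41, Hspa8 -0.37 and Prf1 0.65; with the mean of probe sets Tsc1 gave 0.0375 and Prf1 0.17; after quantile normalization Pcna gave -0.033; leaving out 1 line at a time, Pf4 ran from -1.01 to 0.15 and Prf1 from -0.78 to 0.12. The cause was not tested. Atm-/- line 3 had 17 shifted runs at a limit of 0.2 and 3 at 0.4. Low genes, near the array median, are limited by their signal over background, which these values do not give.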
